A study of Mus musculus with 12 samples.

Results

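The cecum of the mouse was examined here for its Hox genes, the transcription factor genes of the HoxA, HoxB, HoxC and HoxD clusters. Members were all noncontrol probes on the array whose gene name read Hox followed by a cluster letter and a number. This rule found 39 genes among 37074, with 52 probes in all, namely 11 HoxA, 10 HoxB, 9 HoxC and 9 HoxD genes. The rule used only names, not measured levels, although earlier results of these data were known when it was chosen. In a model of postoperative adhesion, cauterization (burning the cecal wall with bipolar forceps set to coagulate) was compared with a sham operation, and total RNA from cecum tissue was hybridized to 1-colour Agilent mouse arrays. There were 4 groups of 3 arrays each. They were sham-operated cecum, which per the methods was taken at 0 h, and cauterized cecum sampled 3 h later, 12 h later or 72 h later. All mice were labelled male and wild type mice in the methods were C57BL/6 (B6), with no age in the labels. The methods call the 3 arrays of a group biological triplicates and no source used here says whether animals were pooled. Because the sham tissue was taken at 0 h, time after surgery and cautery cannot be told apart in any comparison with it.

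Hox proteins bind DNA through a homeodomain and, with TALE family partners such as Pbx and Meis proteins, specify position along the body axis. Genes sit within each cluster in the order in which they are used from head to tail, so that low group numbers act in front and high ones behind, and genes of equal number in different clusters are paralogues that descend from a common ancestor. In the gut the mesenchyme, muscle and enteric nervous system of each segment keep a Hox pattern into adult life, and the cecum forms at the border of midgut and hindgut. Retinoic acid can switch on the genes at the front end of a cluster, while Polycomb and trithorax proteins hold the clusters silent or active.

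Signals are given as log2 of the array's processed signal minus the log2 of that array's 75th percentile, so that 0 is the 75th percentile and each unit is a doubling. The level of one probe cannot be set against that of another, so values are compared only between arrays for a given probe. Between 60.2% and 65.2% of all probes were well above background (the scanner software's own mark) on an array, no spot was saturated, and arrays of a group correlated at 0.985 to 0.992. The median of all probes moved by 0.06, -0.02 and -0.15 against sham at the 3 times in turn, so changes at 72 h stand against that -0.15. The arrays went against their label in sex. Xist, the X inactivation transcript of females, was detected on each of 12 arrays, whereas the Y genes Ddx3y and Eif2s3y were detected on 0 of 12 and Uty on 1 of 12, although the Y gene Kdm5d was detected on 12. All 12 arrays were alike in this, Uty apart, so the groups did not differ by it. Sham and 3 h arrays were on 1 slide with 12 h replicates 1 and 2, and 12 h replicate 3 was on the other slide with the 72 h arrays. Slide and group therefore cannot be told apart for 72 h against sham except through the 12 h arrays.

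Sequences are shown first for the genes on which the results turn. Of 39 genes, 22 matched a RefSeq promoter entry (GRCm38.p6), and the 250 bases upstream of the start site are printed for Hoxb4, Hoxc4 and Hoxd4, because these 3 of the 4 group 4 paralogues all fell at 3 h and 12 h. Capitals mark matches on either strand to AGGTCA, the half-site bound by retinoic acid receptors, which was searched after the sequences had been seen and reads TGACCT when it lies on the opposite strand. Also in capitals are the CCAAT box, the TATA box letters TATAAA and the GC box letters GGGCGG, and no match overlaps another.
Hoxb4: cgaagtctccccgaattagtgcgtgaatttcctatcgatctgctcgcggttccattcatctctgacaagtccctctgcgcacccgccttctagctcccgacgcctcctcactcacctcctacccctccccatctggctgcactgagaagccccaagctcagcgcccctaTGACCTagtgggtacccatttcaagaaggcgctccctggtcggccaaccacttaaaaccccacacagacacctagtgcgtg
Hoxc4: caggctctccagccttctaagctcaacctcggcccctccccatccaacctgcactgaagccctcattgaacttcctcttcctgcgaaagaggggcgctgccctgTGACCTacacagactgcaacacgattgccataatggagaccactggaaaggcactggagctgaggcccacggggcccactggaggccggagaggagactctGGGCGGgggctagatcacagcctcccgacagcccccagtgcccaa
Hoxd4: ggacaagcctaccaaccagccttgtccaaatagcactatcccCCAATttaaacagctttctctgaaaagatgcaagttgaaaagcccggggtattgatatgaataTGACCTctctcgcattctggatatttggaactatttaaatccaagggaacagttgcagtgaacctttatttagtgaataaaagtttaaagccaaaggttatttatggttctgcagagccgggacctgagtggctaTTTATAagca
They lie at chr11:96318017-96318266, chr15:103034145-103034394 and chr2:74721728-74721977, all on the plus strand, with GC contents of 58.0%, 62.0% and 40.4%. Each held 1 match to AGGTCA, which lay 81, 146 and 145 bases before the start in Hoxb4, Hoxc4 and Hoxd4. AGGTCA was found in 6 of 24 Hox entries (25%) and in 14% of all 32851 promoters of that length. TGATNNAT, a Pbx and Hox type site, was in 16.7% of Hox entries and 7.68% of all promoters, and CCAAT in 58.3% and 33.8%. The TATA box letters were in 16.7% and 12.4%, and the GC box letters in 41.7% and 32.7%. Such matches describe the letters only, and binding was not measured here.

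A probe sequence is shown for Hoxc11, because its probe is 1 of 2 among the 52 Hox probes whose translation holds the residues WFQNRR. These belong to the recognition helix that is encoded by the homeobox, the part of the gene that the members share most. Probes elsewhere in a homeobox were not searched for. The 27 bases in capitals encode the 9 residues, WFQNRR among them, that the translations of both these probes have in common. They do not mark the ends of the helix.
Hoxc11: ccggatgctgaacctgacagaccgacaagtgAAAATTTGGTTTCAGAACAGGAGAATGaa
It lies at chr15:102787015-102787074 (mm9, plus strand). The longest run of bases that any pair of Hox probes had in common was 12.

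Most Hox genes could be measured in the uninjured cecum. In sham tissue 29 of 39 members (74.4%) were well above background on all 3 arrays, against 61.7% of all genes. At 3 h it was 25 (64.1%, all genes 58.4%), at 12 h 28 (71.8%, all genes 60%) and at 72 h 31 (79.5%, all genes 61%). All 11 HoxA genes and 8 of 10 HoxB genes were detected in each group. HoxC and HoxD were more patchy, with 5, 2, 5 and 7 of 9 HoxC genes and 5, 4, 4 and 5 of 9 HoxD genes detected in sham, 3 h, 12 h and 72 h tissue. By group number, 21 of the 22 genes numbered 4 to 10 were detected in sham, against 2 of the 9 numbered 11 to 13. The 7 genes Hoxb1, Hoxc12, Hoxc13, Hoxd1, Hoxd11, Hoxd12 and Hoxd13 were well above background on 0 of 12 arrays, with values from -7.59 to -5.29. Hoxb13, a gene of the hind end, was above it only on 1 array of 3 h tissue, at -3.55, while its other 11 values ran from -7.52 to -6.77. Of the hindmost members, Hoxa13, needed for hindgut and genital development, was detected on all 12 arrays, as was Hoxa11.

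**Figure D1:**
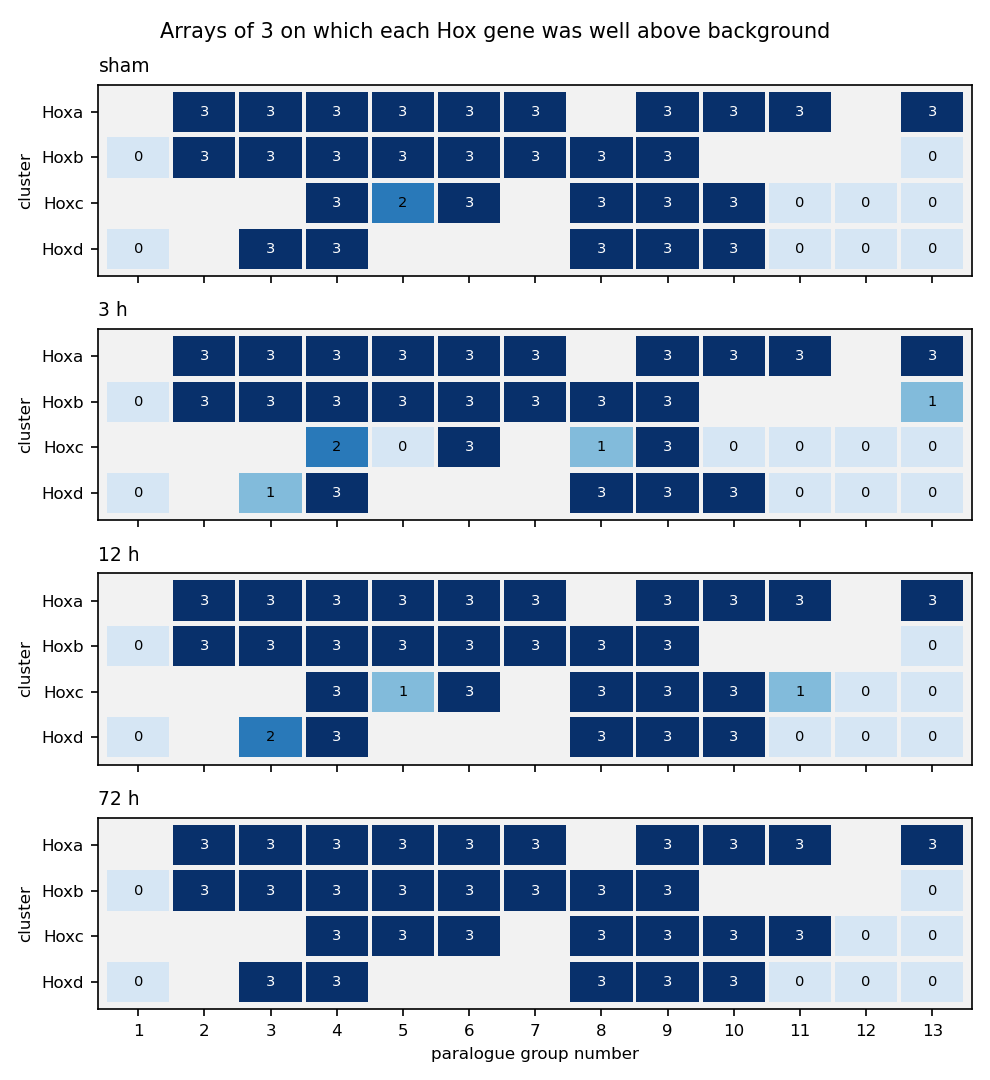
Each panel is a group, with Hox clusters as rows and paralogue group numbers as columns, and each cell gives, for the members reported here, on how many of 3 arrays the gene's brightest probe was well above background. The HoxA genes drawn reach 3 arrays in all 4 panels, while 2 of the 9 HoxC genes reach 3 arrays at 3 h and 7 do at 72 h, among them Hoxc11.

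After cautery, the Hox genes called on their brightest probe lay in HoxB, HoxC and HoxD, while in HoxA Hoxa5 and Hoxa9 fell at 3 h by adjusted p with less than a 2-fold change. A gene was called when its brightest probe changed more than 2-fold with an adjusted p below 0.05 in limma. At 3 h 10 of 39 members (25.6%) were called lower and 0 higher. Over all genes tested at 3 h, 4.11% were called lower and 3.26% higher. At an unadjusted p below 0.05, 23 members were lower and 1 higher at 3 h, where 15.8% and 18.2% of all genes were. At 12 h 6 members (15.4%) were lower and 0 higher, where 4.96% and 4.1% of all genes were called in those directions. The unadjusted counts then were 22 lower and 2 higher, against 18.8% and 13.6% of all genes. At 72 h 0 members were lower and 2 (5.13%) were higher, close to the 4.55% of all genes called higher then, and 4.3% of all genes were called lower. Without adjustment 10 members were lower and 6 higher at 72 h, against 21.5% and 11.3% of all genes.

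By adjusted p alone, with no fold limit, 17 members were lower at 3 h and 15 at 12 h, where 9.7% and 12.2% of all genes were. In the same way 1 member was higher at 3 h, where 9% of all genes were, and at 72 h 3 were lower and 3 higher, where 12.7% and 7.97% of all genes were. The methods' t-test called 0 members after adjustment at each time against sham, and it also called 0 of all 37074 genes.

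The median log2 change of the 39 members was -0.57 after 3 h, -0.55 after 12 h and -0.09 after 72 h, where the medians of all genes were 0.08, -0.01 and -0.14. By cluster the 3 h medians were -0.34 for HoxA, -0.82 for HoxB, -1.21 for HoxC and -0.51 for HoxD. Except for HoxA, these include members that were not above background in sham. Over the 11, 8, 5 and 5 members above background on all sham arrays, they were -0.34, -0.91, -1.89 and -1.11. That filter keeps genes by their sham signal, which can by itself favour falls, so the deeper medians may come from the filter. Over the 25 members above background on all 12 arrays the 3 h median was -0.69. Over all genes passing that same filter it was 0.01. At 72 h the HoxC median was 0.70, and those of HoxA, HoxB and HoxD were -0.06, -0.39 and -0.10. Lower calls at 3 h numbered 3 in HoxB, 5 in HoxC and 2 in HoxD, and at 12 h 3, 2 and 1. HoxA had 0 calls among 11 genes in limma at each time, with 5 of its genes lower at an unadjusted p below 0.05 at 3 h and 5 at 12 h. Whether clusters differ was not tested. The 3 times are each compared with the same sham arrays, so their values are not independent. In whole tissue, fewer cells of a type and less RNA per cell cannot be told apart.

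**Figure D2:**
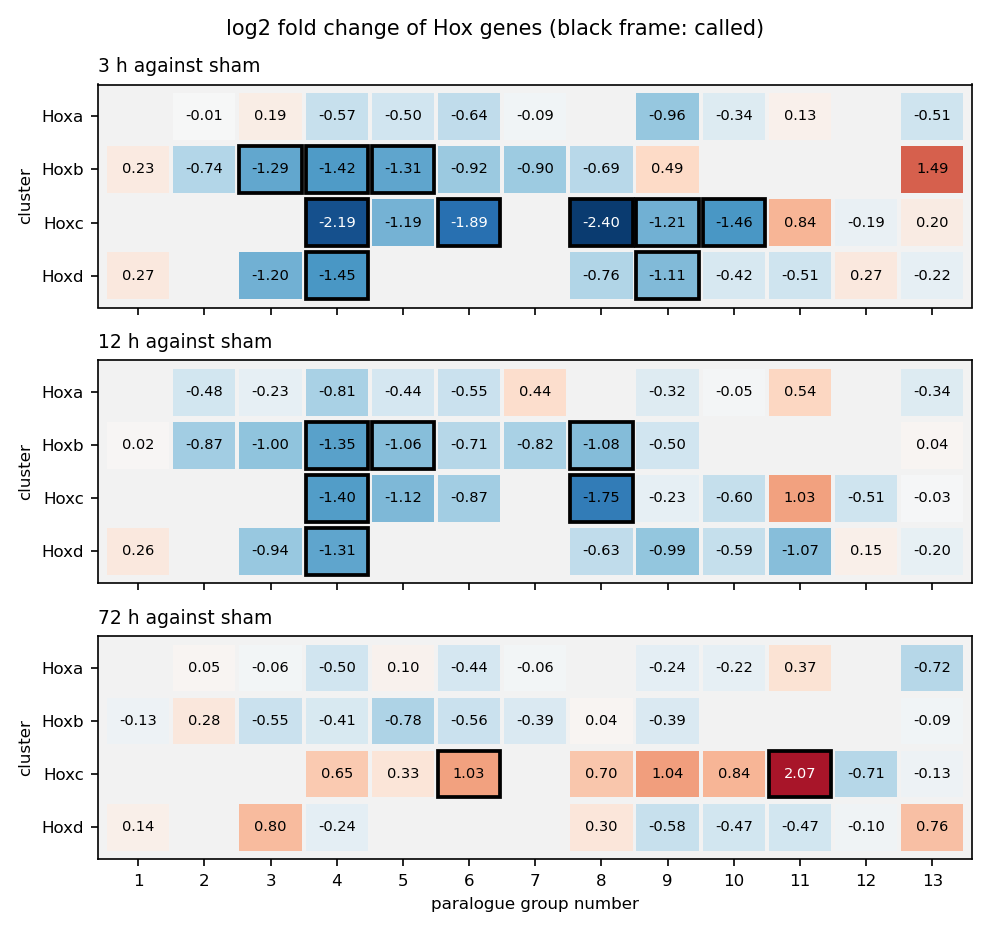
Each panel is a time after cautery, with clusters as rows and group numbers as columns, and each cell gives, for the members reported here, the log2 fold change against sham of the gene's brightest probe, blue for lower and red for higher. Framed cells passed the call, and they sit in HoxB, HoxC and HoxD at 3 h and 12 h and in HoxC at 72 h.

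The HoxC genes, which pattern trunk segments and the skeleton of the chest and loins, held the 3 largest changes at 3 h. Hoxc8, a thoracic patterning gene (probe at chr15:102823887-102823946, mm9), read -2.29, -2.54 and -2.54 in sham, -5.36, -4.54 and -4.67 after 3 h, -4.31, -4.48 and -3.82 after 12 h and -0.99, -2.2 and -2.09 after 72 h. All 3 h and 12 h values lay below every sham value, and only 1 of the 3 h arrays was above background, while all 72 h values lay above sham. The log2 change was -2.4 (SE 0.33, n = 3, adjusted p = 0.00107) at 3 h, -1.75 (adjusted p = 0.00436) at 12 h and 0.7 (adjusted p = 0.173) at 72 h.

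Hoxc4, at the front of the cluster (chr15:102867213-102867272), read -1.88, -2.25 and -2.35 in sham, -3.91, -4.28 and -4.88 after 3 h, -3.51, -3.55 and -3.62 after 12 h and -1.14, -1.63 and -1.76 after 72 h. Its early groups again lay wholly below sham and its 72 h group wholly above it. The changes were -2.19 (SE 0.25, adjusted p = 0.000362), -1.4 (adjusted p = 0.00297) and 0.65 (adjusted p = 0.0915), so that the rise over sham at 72 h did not pass the call. Hoxc4 was above background on 2 of 3 arrays at 3 h.

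Hoxc6 (chr15:102842243-102842302), known from mammary and thoracic development, was detected on all 12 arrays. It read -0.5, -0.74 and -0.79 in sham, -2.55, -2.87 and -2.27 after 3 h, -1.65, -1.49 and -1.48 after 12 h and 1.15, 0.04 and -0.11 after 72 h. Here the 4 groups did not overlap at all, with the 3 h arrays lowest and the 72 h arrays highest. It fell at 3 h by 1.89 on the log2 scale (SE 0.29, adjusted p = 0.00193), stood at -0.87 (adjusted p = 0.0613) at 12 h, and rose by 1.03 (SE 0.29, adjusted p = 0.0319) at 72 h. The 72 h call was lost on leaving out sham replicate 1, 2 or 3 (adjusted p = 0.057, 0.0897 and 0.0839) or 72 h replicate 1 (log2 change 0.64), and a second Hoxc6 probe gave 0.43 (adjusted p = 0.343) at 72 h. That second probe passed the call at 3 h (-2.33) and at 12 h (-1.27, adjusted p = 0.0118).

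Of the further HoxC members, Hoxc9, used as a marker of white fat cells as well as of posterior trunk, read -1.49, -1.71 and -2.03 in sham, -2.74, -2.83 and -3.28 after 3 h, -1.92, -2.1 and -1.9 after 12 h and 0.11, -0.67 and -1.54 after 72 h. Its 3 h arrays lay below sham, its 12 h arrays ran from within the sham range to just under it, and its 72 h arrays reached from inside the sham range to well above it. The 3 h change of -1.21 (SE 0.35, adjusted p = 0.0358) lost its call on leaving out any of 6 arrays in turn, namely sham replicate 1 or 2, any 3 h array, or 72 h replicate 2 (adjusted p from 0.0524 to 0.121), and under quantile normalization (0.0647). Hoxc10, a lumbar and hindlimb gene, read -3.25, -3.8 and -3.54 in sham, -5.29, -4.99 and -4.68 after 3 h, -4.18, -4.54 and -3.67 after 12 h and -1.7, -2.95 and -3.41 after 72 h. It was well above background on 0 of 3 arrays at 3 h and on all 3 in each of the other groups. Its 12 h and 72 h arrays each overlapped sham. It was at least 2.28-fold lower at 3 h than in sham (adjusted p = 0.0292), the bound being set by the dimmest signals above background on the 3 h arrays. That call was lost without sham replicate 1, 2 or 3 or 3 h replicate 1 or 2 (adjusted p from 0.0528 to 0.103).

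The dimmer HoxC members came near background. Hoxc5 read -3.95, -4.19 and -4.75 in sham, -5.03, -5.7 and -5.72 after 3 h, -4.91, -6.44 and -4.9 after 12 h and -3.56, -4.23 and -4.12 after 72 h. It was above background on 2, 0, 1 and 3 arrays in that order. Its 3 h and 12 h arrays lay below sham, and its 72 h arrays overlapped sham. Against sham its changes of -1.19, -1.12 and 0.33 did not pass the test. Hoxc11, a hind trunk gene whose probe is printed above, read -5.67, -5.72 and -6.28 in sham, -4.98, -4.75 and -5.42 after 3 h, -5.79, -5.1 and -3.7 after 12 h and -2.93, -4.35 and -4.2 after 72 h. It was above background only on 12 h replicate 3 and on all 3 arrays at 72 h. These are the arrays of the second slide, so its detection follows slide as well as time. At 72 h its signal was at least 2.29-fold higher than in sham (adjusted p = 0.0188), without a slide term. Within the second slide, 72 h minus 12 h was -0.12. With normexp background correction the 72 h change against sham was 0.09. The call was also lost without sham replicate 3 (adjusted p = 0.0601) or 72 h replicate 1 (0.0645).

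**Figure D3:**
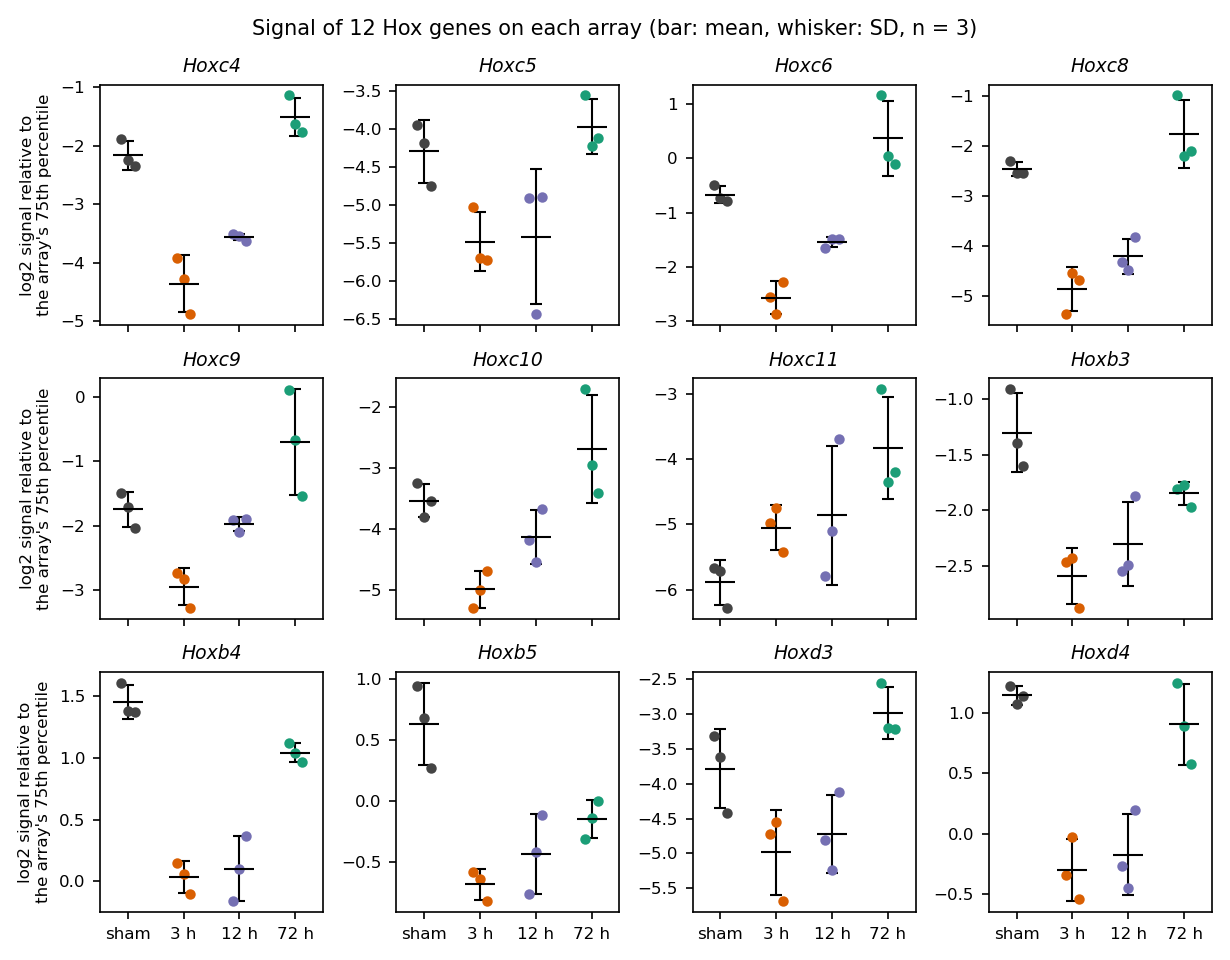
Each panel is 1 of the 12 Hox genes with the largest called changes, with group on the x axis and log2 signal minus the array's 75th percentile on the y axis; points are arrays, bars means and whiskers SD (n = 3). The genes were picked for these changes, and the panels show for example Hoxc8 from -5.36 to -4.54 at 3 h against -2.54 to -2.29 in sham.

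In HoxB the lower calls fell on genes of the front and middle. Hoxb4, known for expanding blood stem cells (probe at chr11:96182885-96182944), read 1.61, 1.38 and 1.37 in sham, 0.15, 0.06 and -0.1 after 3 h, -0.16, 0.1 and 0.37 after 12 h and 1.12, 1.04 and 0.97 after 72 h. Sham arrays were highest, the 3 h and 12 h arrays overlapped each other well below them, and the 72 h arrays lay in between without overlap. The changes were -1.42 (SE 0.15, adjusted p = 0.000226) at 3 h, -1.35 (adjusted p = 0.000192) at 12 h and -0.41 (adjusted p = 0.074) at 72 h. Hoxb5, which acts in the neural crest that forms the enteric nervous system, read 0.94, 0.68 and 0.27 in sham, -0.58, -0.64 and -0.82 after 3 h, -0.76, -0.42 and -0.11 after 12 h and -0.31, -0.14 and 0.0 after 72 h. All 9 cauterized arrays lay below all 3 sham arrays. It fell by 1.31 (adjusted p = 0.00193) at 3 h and by 1.06 (adjusted p = 0.00452) at 12 h, and stood at -0.78 (adjusted p = 0.0222) at 72 h. Without sham replicate 1 or 12 h replicate 1 the 12 h fold of Hoxb5 dropped below 2 (log2 change -0.91 and -0.9).

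Hoxb3, which acts in the hindbrain and pharyngeal arches, read -0.91, -1.4 and -1.6 in sham, -2.47, -2.43 and -2.88 after 3 h, -2.55, -2.49 and -1.87 after 12 h and -1.81, -1.77 and -1.97 after 72 h on its brightest probe. That probe is the other one that holds the WFQNRR residues, and its listed accessions include those of Hoxd3. Sham arrays were all above the others, and the change at 3 h was -1.29 (SE 0.23, adjusted p = 0.00375). The remaining Hoxb3 probes gave -0.14 (adjusted p = 0.507) and -0.25 (adjusted p = 0.317) at 3 h, so this call rests on the brightest probe alone. Hoxb8, a gene of blood and microglial precursors, read 2.35, 1.62 and 1.79 in sham, 1.5, 1.33 and 0.85 after 3 h, 0.71, 0.87 and 0.94 after 12 h and 2.05, 1.88 and 1.94 after 72 h. Its 12 h arrays lay below sham without overlap and its 72 h arrays within the sham range. The change at 12 h was -1.08 (SE 0.21, adjusted p = 0.00481), and -0.87 without sham replicate 1, which no longer passed the fold. At 3 h it was -0.69 (adjusted p = 0.0438), a smaller fold than the call asks for.

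The rest of HoxB split. Hoxb6 read 2.71, 2.64 and 2.56 in sham and 1.93, 1.6 and 1.61 at 3 h, and Hoxb7 read 3.43, 3.52 and 3.53 and 2.93, 2.47 and 2.37. At 12 h and 72 h Hoxb6 read 1.51, 2.06 and 2.19 and 2.05, 2.16 and 2.03, and Hoxb7 read 2.76, 2.75 and 2.51 and 2.96, 3.11 and 3.24. Both genes lay below sham on every later array, with changes of -0.92 (adjusted p = 0.00501) and -0.9 (adjusted p = 0.00323) that missed the 2-fold limit. Hoxb9 went the other way at 3 h, from 2.57, 2.79 and 2.73 in sham to 3.36, 3.21 and 2.99, without overlap, and then read 2.33, 2.19 and 2.07 at 12 h and 2.1, 2.38 and 2.44 at 72 h. Its change was 0.49 (adjusted p = 0.0331) at 3 h and -0.5 (adjusted p = 0.0282) at 12 h, and its second probe gave 0.17 (adjusted p = 0.554) at 3 h. Hoxb2, a hindbrain gene, changed by -0.74 (adjusted p = 0.02) at 3 h and -0.87 (adjusted p = 0.00765) at 12 h, short of 2-fold, while its second probe, which the files place on the opposite strand, passed the call at both times (-1.89 and -1.31). Hoxb1 was not above background on any array.

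In HoxD the front and middle genes moved. Hoxd4 (chr2:74566866-74566925) read 1.22, 1.07 and 1.14 in sham, -0.34, -0.03 and -0.54 after 3 h, -0.27, -0.45 and 0.2 after 12 h and 1.25, 0.89 and 0.58 after 72 h. The 3 h and 12 h arrays lay below every sham array, and the 72 h arrays spanned the sham range. The changes were -1.45 (SE 0.21, adjusted p = 0.00154), -1.31 (adjusted p = 0.00192) and -0.24 (adjusted p = 0.488). Hoxd9, of the trunk and limb, fell at 3 h by 1.11 (SE 0.18, adjusted p = 0.00229) from -1.14, -1.24 and -1.42 to -2.37, -2.34 and -2.42, with no overlap. That 3 h fold dropped below 2 under quantile normalization (log2 change -0.99) and normexp background correction (-0.48). At 12 h Hoxd9 stood at -0.99 (adjusted p = 0.00317), just under 2-fold.

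Hoxd3 read -3.31, -3.62 and -4.42 in sham, -4.72, -4.55 and -5.69 after 3 h, -4.81, -5.24 and -4.12 after 12 h and -2.55, -3.2 and -3.21 after 72 h, and was above background on 3, 1, 2 and 3 arrays. Its early groups lay below sham but for 1 array at 12 h, and its changes against sham did not pass the test (adjusted p = 0.0637, 0.134 and 0.201). Hoxd8, next to Hoxd9, read 1.11, 1.21 and 1.12 in sham, 0.35, 0.53 and 0.3 after 3 h, 0.42, 0.43 and 0.71 after 12 h and 1.61, 1.52 and 1.21 after 72 h. Its early arrays lay below sham, by -0.76 (adjusted p = 0.00394) at 3 h, under 2-fold. Hoxd10, a lumbar and hindlimb gene, read -1.87, -1.91 and -1.86 in sham, -2.51, -2.01 and -2.37 after 3 h, -2.41, -2.8 and -2.2 after 12 h and -2.54, -2.36 and -2.17 after 72 h. All its later arrays lay below sham, and it moved by -0.42 at 3 h and -0.59 (adjusted p = 0.0406) at 12 h. Hoxd1, Hoxd11, Hoxd12 and Hoxd13, of which the last is known for its part in digit formation, were not above background.

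In HoxA no brightest probe passed the call. Hoxa4, the fourth paralogue of group 4, read -3.36, -3.91 and -3.55 in sham, -4.09, -4.11 and -4.34 after 3 h, -4.87, -4.28 and -4.09 after 12 h and -4.54, -4.03 and -3.76 after 72 h. All early values lay below sham, but the changes of -0.57 (adjusted p = 0.134) and -0.81 (adjusted p = 0.0432) were smaller than those of Hoxb4, Hoxc4 and Hoxd4, a difference that was not tested. Hoxa5, a lung patterning gene, read -0.75, -0.92 and -0.85 in sham, -1.3, -1.3 and -1.4 after 3 h, -1.61, -1.16 and -1.06 after 12 h and -0.63, -0.65 and -0.93 after 72 h. The early arrays lay below sham, with a change of -0.5 (adjusted p = 0.0438) at 3 h. Hoxa9, known from blood cells and leukaemia, read 0.87, 0.88 and 0.82 in sham, 0.03, -0.05 and -0.29 after 3 h, 0.46, 0.6 and 0.56 after 12 h and 0.49, 0.67 and 0.68 after 72 h. Its 3 h arrays lay below all sham arrays, with a change of -0.96 (SE 0.11, adjusted p = 0.000434), just short of 2-fold. Another of its probes, not matched to a RefSeq transcript, passed the call (-1.7, adjusted p = 0.00252). The remaining Hoxa9 probe gave -0.76 (adjusted p = 0.00365) and did not pass.

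Hoxa7, a trunk gene, read 3.9, 3.84 and 3.91 in sham and 4.03, 3.84 and 3.48 at 3 h, and its change of -0.09 lay within the spread of the arrays. Hoxa10, which also acts in the uterus, read 3.45, 3.5 and 3.7 in sham, 3.48, 3.01 and 3.13 after 3 h, 3.52, 3.47 and 3.51 after 12 h and 3.14, 3.4 and 3.46 after 72 h. Its groups overlapped sham throughout, with changes of -0.34, -0.05 and -0.22. Hoxa11, a limb and kidney gene, read 0.55, 0.66 and 1.39 in sham, 1.33, 0.73 and 0.93 after 3 h, 1.64, 1.24 and 1.34 after 12 h and 1.17, 1.17 and 1.37 after 72 h. Its sham replicate 3 stood apart from the other sham arrays and met the later values, and its changes were 0.13, 0.54 and 0.37. Hoxa13 stood at -0.72 (adjusted p = 0.125) at 72 h.

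Against sham, Hoxa2, Hoxa3 and Hoxa6 did not pass the test on their brightest probes. Hoxa2, the paralogue of Hoxb2 in the hindbrain, read -2.16, -2.62 and -2.62 in sham, -2.5, -2.38 and -2.54 after 3 h, -3.27, -2.77 and -2.79 after 12 h and -2.55, -2.31 and -2.38 after 72 h. Its changes of -0.01, -0.48 and 0.05 did not pass the test. Hoxa3, needed for thymus and parathyroid, read 1.05, 0.96 and 0.8 in sham, 1.13, 1.1 and 1.15 after 3 h, 0.52, 0.88 and 0.72 after 12 h and 0.91, 0.98 and 0.73 after 72 h. It changed by 0.19, -0.23 and -0.06, although another of its probes gave -1.01 (adjusted p = 0.0445) at 3 h. That probe is not matched to a RefSeq transcript, and the remaining Hoxa3 probe gave 0.26 (adjusted p = 0.325) at 3 h. Hoxa6 read -2.12, -2.03 and -2.05 in sham, -2.61, -2.61 and -2.91 after 3 h, -3.14, -2.29 and -2.41 after 12 h and -2.36, -2.43 and -2.72 after 72 h. All its later arrays lay below sham, by -0.64, -0.55 and -0.44, and no change passed the test (adjusted p = 0.0583, 0.0948 and 0.181).

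**Figure D4:**
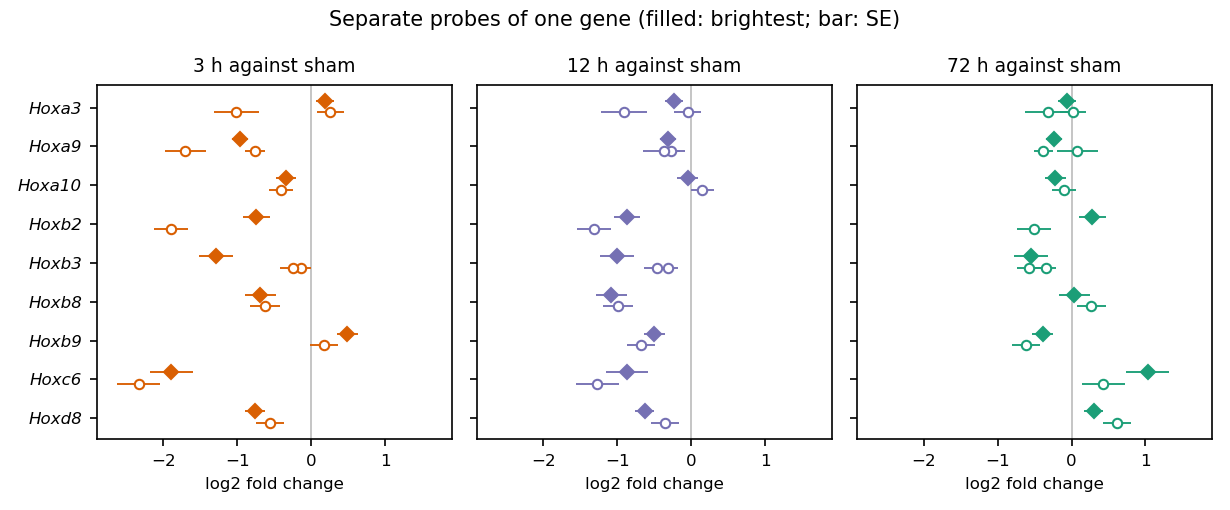
Rows are Hox genes with more than 1 probe, panels are times after cautery, and the x axis is the log2 fold change against sham, with the brightest probe filled, the others open and bars showing SE. The Hoxb3 probes lie far apart at 3 h (-1.29 against -0.14 and -0.25), while the Hoxc6 probes both lie below -1.8.

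Between times, 0 members were called from 3 h to 12 h in limma, where 1.89% and 1.56% of all genes were called higher and lower. Without adjustment 5 members were higher and 3 lower, against 9.51% and 14.5% of all genes, and by adjusted p alone 1 was higher and 1 lower, against 3.82% and 5.15%. From 12 h to 72 h, 10 members (25.6%) rose and 0 fell, where 4.33% of all genes were called higher and 3.19% lower. Without adjustment 17 members were higher and 1 lower, against 13.4% and 19% of all genes. By adjusted p alone 14 members rose, against 8.75% of all genes. The 10 were Hoxb2, Hoxb8, Hoxc4, Hoxc5, Hoxc6, Hoxc8, Hoxc9, Hoxc10, Hoxd3 and Hoxd4. Hoxc8 rose by 2.45 (SE 0.33, adjusted p = 0.00117), Hoxc4 by 2.05 (adjusted p = 0.000669) and Hoxc6 by 1.9 (adjusted p = 0.0022). For Hoxd3 the rise was 1.73 (adjusted p = 0.015), for Hoxb2 1.16 (adjusted p = 0.00265), for Hoxb8 1.12 and for Hoxd4 1.08. The median change of the 39 members from 12 h to 72 h was 0.43, against -0.14 over all genes, with HoxC at 1.44 and HoxA at 0.11.

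Slide bears on these later values. Over all 37074 genes, a slide term gave 1152 calls at 72 h against sham and 1225 from 12 h to 72 h. The fit without it called 1595 genes lower and 1687 higher at 72 h against sham. From 12 h to 72 h it called 1184 lower and 1604 higher. With slide as a term in the fit, Hoxb2, Hoxc4 and Hoxc8 were the 3 of 10 that kept their call from 12 h to 72 h, and for 72 h against sham both calls were lost (Hoxc6 0.94, adjusted p = 0.354; Hoxc11 0.33, adjusted p = 0.825) and Hoxd9 was called lower (-1.24, adjusted p = 0.0153). Within the second slide, the 72 h arrays stood above the 1 array of 12 h tissue by 2.11 for Hoxc4, 2.06 for Hoxc8 and 1.84 for Hoxc6. All 10 calls at 3 h stayed with the slide term. Sham and 3 h arrays share a slide, so the term could not move those log2 changes and does not test them. All 6 calls at 12 h stayed too, and within the first slide the 12 h arrays stood below sham by -1.94 for Hoxc8, -1.36 for Hoxc4, -1.48 for Hoxb4 and -1.5 for Hoxd4. Array 72 h replicate 1 was the highest of its group for Hoxc4, Hoxc5, Hoxc6, Hoxc8, Hoxc9, Hoxc10 and Hoxc11. Without it 5 of the 39 members were called from 12 h to 72 h instead of 10, and without 12 h replicate 2 also 5. Hoxb2, Hoxb8, Hoxc4, Hoxc6 and Hoxc8 kept this call whichever array was left out. Hoxc5, Hoxc9, Hoxc10, Hoxd3 and Hoxd4 lost it without 72 h replicate 1 (log2 changes of 1.24, 0.87, 0.95, 1.51 and 0.91) and without 12 h replicate 2 (0.93, 1.21, 1.24, 1.48 and 0.94). Hoxc5 also lost it without sham replicate 2 or 72 h replicate 2 or 3, Hoxc9 without 12 h replicate 1 or 3 or 72 h replicate 2, and Hoxc10 without 12 h replicate 1 or 72 h replicate 2 (adjusted p from 0.0532 to 0.0832).

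Genes that work with the Hox clusters were counted by list, and the same calls took in 4.11% of all genes lower and 3.26% higher after 3 h, 4.96% and 4.1% after 12 h, and 4.3% and 4.55% after 72 h. Of 9 TALE cofactors, 1 fell at 3 h and 1 at 12 h, in both cases Meis1, with changes of -1.82 (adjusted p = 0.000191) and -1.44 (adjusted p = 0.000458). Meis1 read 2.19, 2.06 and 2.0 in sham and 0.22, 0.33 and 0.24 at 3 h. At 72 h Pknox2 was the 1 cofactor that rose, by 1.51 (adjusted p = 0.0149). Of 6 ParaHox and caudal genes, the gut relatives of Hox genes, 0 were called at 3 h and 12 h and 2 fell at 72 h, namely Cdx2, which maintains intestinal epithelium, by 1.01 (adjusted p = 0.00854) and Pdx1 by 1.1 (adjusted p = 0.0153).

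Retinoic acid genes changed in both directions, with 2 of 13 genes up and 3 down both at 3 h and at 12 h. At 72 h 5 were up and 2 down. At 3 h the synthesis genes Aldh1a3 and Rdh10 rose by 2.58 (adjusted p = 0.000411) and 2.11 (adjusted p = 5.04e-05), while Cyp26b1, which degrades retinoic acid, changed by -2.27 (adjusted p = 0.00674) and the receptor gene Rarb by -1.67 (adjusted p = 0.000499). At 72 h Aldh1a1 changed by -2.78, Cyp26b1 by -2.19 and Aldh1a3 by 2.18. Of 19 Polycomb and trithorax genes, 3 fell at 3 h, all of them chromobox genes of Polycomb (Cbx7 -1.26, Cbx8 -1.18 and Cbx2 -1.02). At 12 h the 1 called was Kdm6b, a demethylase of the Polycomb mark, higher by 1.23 (adjusted p = 0.000515), and at 72 h 0 were called. Of 12 gut mesenchyme regulators 0 were called at 3 h and 1 at 12 h (Isl1, not above background on any sham or 12 h array, so with no fold).

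Markers of other cell types moved over the same times, and these values stand beside the Hox results. The mean level of 5 mesothelial markers ran from -2.01 to -1.93 in sham, from -4.85 to -3.16 at 3 h, from -4.31 to -3.41 at 12 h and from -1.23 to 0.34 at 72 h. Of these, Upk3b and Lrrn4 were called lower at 3 h and 12 h, where both were above background on 0 of 3 arrays, and 2 of the 5, Wt1 and Upk1b, were higher at 72 h. The 5 fat cell markers ran from -0.68 to 0.07 in sham, from -3.53 to -1.76 at 3 h, from -3.39 to -2.09 at 12 h and from -3.29 to 1.48 at 72 h, and 1 of the 5 (Adrb3) was called lower at 3 h and at 12 h. At 72 h replicate 1, highest for HoxC, the means of the fat cell (1.48), mesothelial (0.34), fibroblast (5.21) and endothelial (0.67) lists were also the highest of their group, and those of the epithelial (5.73), smooth muscle (3.15), enteric (-1.78) and leukocyte (2.52) lists the lowest. The 6 fibroblast markers ran from 3.19 to 3.37 in sham, 2.65 to 2.9 at 3 h, 2.33 to 2.59 at 12 h and 4.28 to 5.21 at 72 h, with 0 called, then 3 lower, then 4 higher. Smooth muscle markers were lower in 1, 8 and 6 of 8 cases at the 3 times in turn, and enteric neuron and glia markers in 0, 2 and 1 of 9. Epithelial markers, at 6.71 to 6.86 in sham and 7.16 to 7.26 at 3 h, had 0 of 9 called at 3 h and 12 h and 1 lower at 72 h. Of 5 endothelial markers 2 were higher at 72 h, and of 7 leukocyte markers 2 were higher at 12 h and 1 at 72 h. Their part in the Hox results was not tested.

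**Figure D5:**
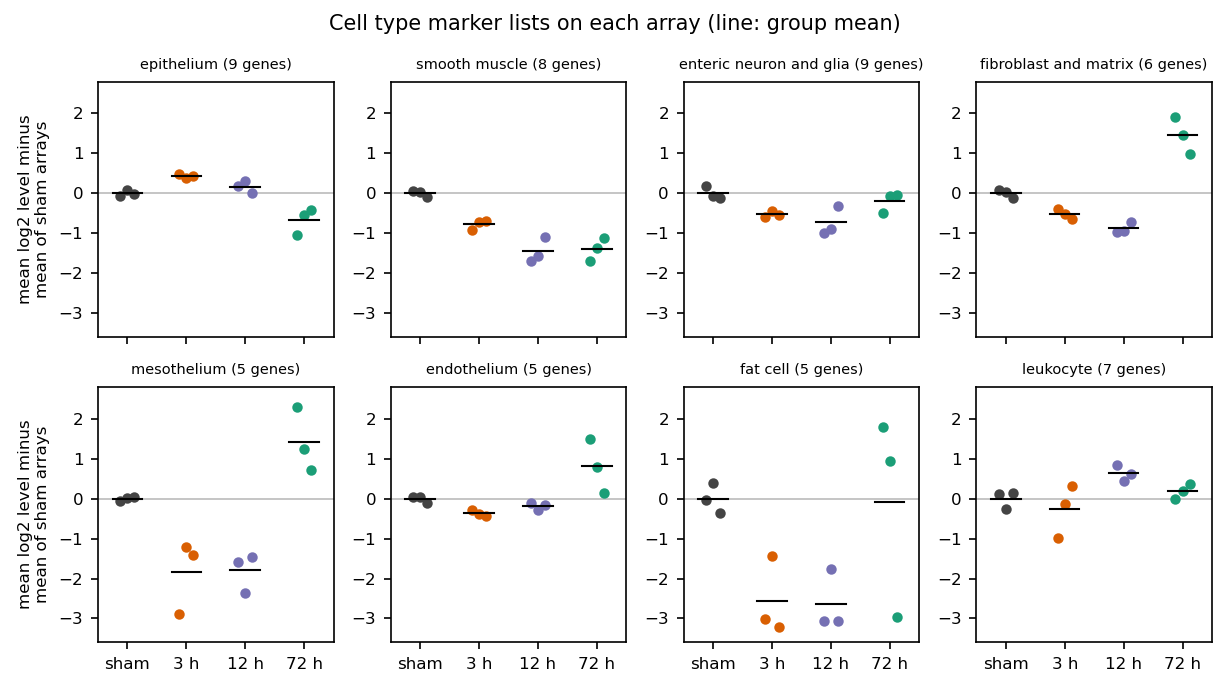
Each panel is a list of cell type markers, with group on the x axis and, on the y axis, the mean log2 level of the list on each array minus the mean of the sham arrays; points are arrays and lines group means. The mesothelial, fat cell, smooth muscle, fibroblast, enteric and endothelial lists all lie below sham on every array of 3 h and 12 h tissue.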

How the data were processed

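Total RNA of 12 mouse cecum samples in 4 groups was labelled with Cy3, and each sample was hybridized to 1 Agilent SurePrint G3 Mouse array. The deposited scanner files hold spot intensity from Agilent Feature Extraction 11.5.1.1, with probe positions on mm9. The authors' own table, made with GeneSpring, holds log2 values scaled to the 75th percentile and was found here to be centred on each row's median. It was used only as an alternative. From the processed intensity, log2 was taken, the 75th percentile over 56605 noncontrol probes was subtracted per array, spots of one probe were averaged, outlier spots were dropped, and limma 3.58.1 in R 4.3.3 was fitted to all 12 arrays. Its p-values were adjusted over 56605 probes (Benjamini-Hochberg), and a call needed a fold above 2 and an adjusted p below 0.05, the thresholds of the study's methods. Each gene stands by its brightest probe over the 12 arrays.

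The members and lists were chosen with earlier results of these data known. Values on every array are given for the 12 called members with the largest changes and for members not called that have a called paralogue or neighbour; of each list up to 4 called genes are named. Members outside this rule, such as Hoxa7, Hoxa13, Hoxb2, Hoxb8, Hoxb13 and Hoxd9, were named after their values were seen. Values of some members and list genes are not reported here, although they count in the totals. The p-values measure the spread among 3 arrays a group, whose number limits the precision. The fit was tested on simulated data, the outcome of which is not given here. Sequences were read from the probe annotation and from RefSeq promoter entries of GRCm38.p6, a build other than mm9, and no coordinate was converted. Alternatives were another scaling, background correction, filter, slide term, replicate block, variance model, probe rule, the authors' table, a t-test and each array left out. A further 2 (the percentile over spots and probes with the gene's own accessions only) were chosen after seeing the data.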

Additional observations from a re-analysis of the deposited data

Results flagged for a closer look

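For 10 Hox genes the change against sham at 72 h differed from that at 12 h, tested in limma as the difference of the 72 h and 12 h arrays. In HoxC, whose members pattern the trunk, the log2 difference of 72 h minus 12 h was 2.45 for Hoxc8, 2.05 for Hoxc4, 1.9 for Hoxc6, 1.45 for Hoxc5, 1.44 for Hoxc10 and 1.27 for Hoxc9. In HoxD it was 1.73 for Hoxd3 and 1.08 for Hoxd4, and in HoxB 1.16 for Hoxb2 and 1.12 for Hoxb8. All 10 were higher at 72 h. With slide as a term in the fit, Hoxb2, Hoxc4 and Hoxc8 kept the call, and 5 of the 10 (Hoxc5, Hoxc9, Hoxc10, Hoxd3 and Hoxd4) lost it without 72 h replicate 1. No explanation was tested.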

How the results depend on the processing

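Over 28 called changes and 26 alternatives each, 621 of 728 values kept direction and call, 107 kept the direction alone and 0 reversed. With normexp background correction (offset 50, against a 75th percentile of 180 to 261 units) the counts of called Hox genes fell to 2 lower at 3 h, 2 lower at 12 h, 0 higher at 72 h and 2 higher from 12 h to 72 h. Over all 37074 genes the calls in either direction were then 838, 1327, 1258 and 1065. The main fit called 1523 genes lower and 1209 higher at 3 h, and 1184 lower and 1604 higher from 12 h to 72 h. The t-test, adjusted, called 0 in each of these 4 comparisons, as it did over all genes. By adjusted p alone there were 17 lower and 1 higher at 3 h, 15 lower at 12 h, 3 lower at 72 h, and 1 lower and 1 higher from 3 h to 12 h. With slide as a term there were 1 lower and 0 higher at 72 h and 3 higher from 12 h to 72 h. Over all genes that term gave 1152 and 1225 calls in either direction. At 72 h, fitting sham and 72 h alone, or averaging a gene's probes, left 1 higher. From 3 h to 12 h, 1 was higher with the dim-probe filter, a trend and robust variance, the pair alone or averaged probes, and 1 lower with the percentile over spots. With 1 array left out, counts ran from 8 to 11 lower at 3 h, 4 to 8 lower at 12 h, 0 to 3 higher at 72 h, 0 to 1 lower and 0 to 1 higher from 3 h to 12 h, and 5 to 12 higher from 12 h to 72 h. Same-numbered arrays did not deviate together (correlations from -0.16 to 0.09 over 18 pairs), and a replicate block gave 11 calls at 3 h, 6 at 12 h, 3 at 72 h, 0 from 3 h to 12 h and 10 from 12 h to 72 h. Members near background, such as Hoxc5, Hoxc10, Hoxc11 and Hoxd3, have the least signal to compare. Hoxc8 and Hoxc4 also came near it at 3 h, above background on 1 and 2 of 3 arrays.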

Other observations

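Antisense and noncoding transcripts of the clusters were measured beside the Hox genes. Hoxaas3, which is transcribed within HoxA, read 0.14, -0.05 and 0.28 in sham and 1.15, 1.14 and 1.22 at 3 h, a rise of 1.04 on the log2 scale (adjusted p = 0.00302, limma). Hoxa11os, on the strand opposite to Hoxa11, read 3.84, 3.25 and 3.30 in sham and 2.62, 2.48 and 2.36 at 3 h, a change of -0.98 (adjusted p = 0.0248) just under 2-fold. Hoxaas2, Hoxb5os and Hoxd3os1 changed by 0.11, 0.03 and -0.77 at 3 h and did not pass the test.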
